A study of Mus musculus with 15 samples.

Results

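The IL-36 family is a branch of the IL-1 family of cytokines, read here as RNA in mouse skin. Its 6 genes in the deposited table were taken by name: the agonists Il1f6 (IL-36 alpha), Il1f8 (IL-36 beta) and Il1f9 (IL-36 gamma), the receptor antagonist Il1f5 (IL-36Ra), the related ligand Il1f10 (IL-38) and the receptor chain Il1rl2 (IL-36R). They are 6 of 54532 genes, and all 6 were among the 17646 genes that passed the filter on low values. Skin was profiled in 4 groups of 3 libraries each: mice labelled Trpv3 knockout and given MC903 for 7 days, wild type mice given MC903 for 7 days, untreated mice labelled Trpv3 knockout and untreated wild type mice. MC903, or calcipotriol, is an analogue of vitamin D used on mouse skin to model atopic dermatitis, and Trpv3 encodes a warmth-sensing cation channel found in keratinocytes. Conditional knockouts are mentioned for the series, but the labels name neither the cells that lose the gene nor a Cre driver. The labels also name no strain, age or vehicle, so the treatment and any vehicle or handling cannot be told apart. Nothing in them ties the 3 libraries in each group to 3 different animals, and the p-values thus reflect a spread among libraries that may be technical.

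IL-36 alpha, beta and gamma are made mainly by epithelial cells, above all by keratinocytes of the skin. Proteases trim them to their active form, after which they bind IL-36R, recruit the shared accessory chain IL-1RAcP (Il1rap) and signal through Myd88 and the Irak kinases to NF-kappaB and MAP kinases. IL-36Ra binds the same receptor without recruiting the accessory chain and so blocks it, and IL-38 is described as a further antagonist. In human skin, loss of the antagonist gene IL36RN underlies a form of generalized pustular psoriasis.

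The libraries held 16869716 to 18485698 reads assigned to genes, with 23281 to 24927 genes above 0. Trpv3 RNA was 6.82, 6.78 and 4.73 FPKM (fragments scaled to gene length and to a factor per library) in MC903 skin labelled knockout, against 16.1, 17.0 and 19.0 FPKM in MC903 wild type skin. In untreated skin it was 3.17, 3.64 and 2.62 FPKM in libraries labelled knockout and 2.06, 2.71 and 1.13 FPKM in wild type libraries, and was thus not lower under the knockout label (log2 fold change 0.61, limma adjusted p = 0.10). Genotype is therefore given as labelled. Untreated wild type replicate 3 was the lowest of its group for all 6 genes, at 0.249 times (Il1f9) to 0.792 times (Il1rl2) the mean of replicates 1 and 2. Skeletal muscle markers summed to 2664 FPKM in that library, against 1368 and 1340 FPKM in replicates 1 and 2, and their part was not tested. RNA of whole skin cannot tell fewer cells of a type from less RNA per cell.

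The 5 ligand genes lie side by side on chromosome 2 of mm10, all on the plus strand, in the order Il1f8 (24153161 to 24160519), Il1f9 (24186476 to 24193568), Il1f6 (24215418 to 24225702), Il1f5 (24276954 to 24283426) and Il1f10 (24291196 to 24293820). They span 140.66 kb, and Il1rn, which encodes the IL-1 receptor antagonist, starts 43.0 kb beyond. Il1rl2 lies apart on chromosome 1 (40324610 to 40367562, plus strand) in the cluster of IL-1 receptor family genes. RefSeq promoter windows (GRCm38.p6, 250 bases before to 50 after a start) matched 5 of the 6 genes. Of these, 4 are printed to set side by side the starts of neighbouring genes that rose or fell after MC903 in wild type skin: Il1f8 (chr2:24152922-24153221), Il1f9 (chr2:24186226-24186525), Il1f5 (the first of its 2 windows, chr2:24276704-24277003) and Il1f10 (chr2:24290946-24291245), all on the plus strand. Capitals mark a match to a motif searched on both strands: AP-1 (TGANTCA), C/EBP (TTGCNNAA), NF-kappaB and the vitamin D receptor element.
Il1f8: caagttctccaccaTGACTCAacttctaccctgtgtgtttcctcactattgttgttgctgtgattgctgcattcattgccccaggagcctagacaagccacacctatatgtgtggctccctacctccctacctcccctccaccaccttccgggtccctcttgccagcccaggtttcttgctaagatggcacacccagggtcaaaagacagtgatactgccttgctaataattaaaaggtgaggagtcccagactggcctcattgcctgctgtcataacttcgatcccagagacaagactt
Il1f9: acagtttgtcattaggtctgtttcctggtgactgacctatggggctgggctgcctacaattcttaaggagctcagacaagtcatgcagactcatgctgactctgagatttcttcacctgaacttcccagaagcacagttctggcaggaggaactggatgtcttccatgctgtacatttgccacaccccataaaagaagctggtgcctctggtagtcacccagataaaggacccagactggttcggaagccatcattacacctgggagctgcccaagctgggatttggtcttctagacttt
Il1f5: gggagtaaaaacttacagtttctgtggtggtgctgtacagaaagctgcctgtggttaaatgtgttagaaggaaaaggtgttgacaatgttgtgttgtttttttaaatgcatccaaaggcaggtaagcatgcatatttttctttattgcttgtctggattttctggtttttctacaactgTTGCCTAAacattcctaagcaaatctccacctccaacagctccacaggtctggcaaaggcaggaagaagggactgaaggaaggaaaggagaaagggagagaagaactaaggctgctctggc
Il1f10: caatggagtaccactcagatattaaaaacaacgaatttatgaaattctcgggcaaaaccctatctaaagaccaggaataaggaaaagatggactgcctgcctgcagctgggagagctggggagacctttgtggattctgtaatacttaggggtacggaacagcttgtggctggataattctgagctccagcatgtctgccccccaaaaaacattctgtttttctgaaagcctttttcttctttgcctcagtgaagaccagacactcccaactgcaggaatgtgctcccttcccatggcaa
The Il1f8 window holds an AP-1 match at base -236 from its start, and the Il1f5 window a C/EBP match at base -71. The Il1rl2 window, not printed, holds a C/EBP match at base -124 (TTGCTTAA). The windows of Il1f9 and Il1f10 and the other Il1f5 window hold none of the 4 motifs. Of all 32851 promoter windows, 7.81% hold the AP-1 motif, 10.8% the C/EBP motif, 8.46% the NF-kappaB motif and 0.0396% the vitamin D receptor element.

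After MC903 in wild type skin, all 3 agonists, the antagonist Il1f5 and the receptor Il1rl2 rose and Il1f10 fell. In skin labelled knockout the family did not move together: Il1f8 and Il1rl2 rose, Il1f6 and Il1f10 fell, and Il1f5 and Il1f9 did not pass the test, although Il1f9 did under 3 of 23 alternatives. Before any treatment, skin labelled knockout already held more Il1f6, Il1f5 and Il1rl2 RNA than wild type skin. After MC903 it held less of every member but Il1f8. The calls of Il1f6, Il1f9 and Il1f10 in that comparison were lost under 4, 6 and 4 of 23 alternatives.

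**Figure D1:**
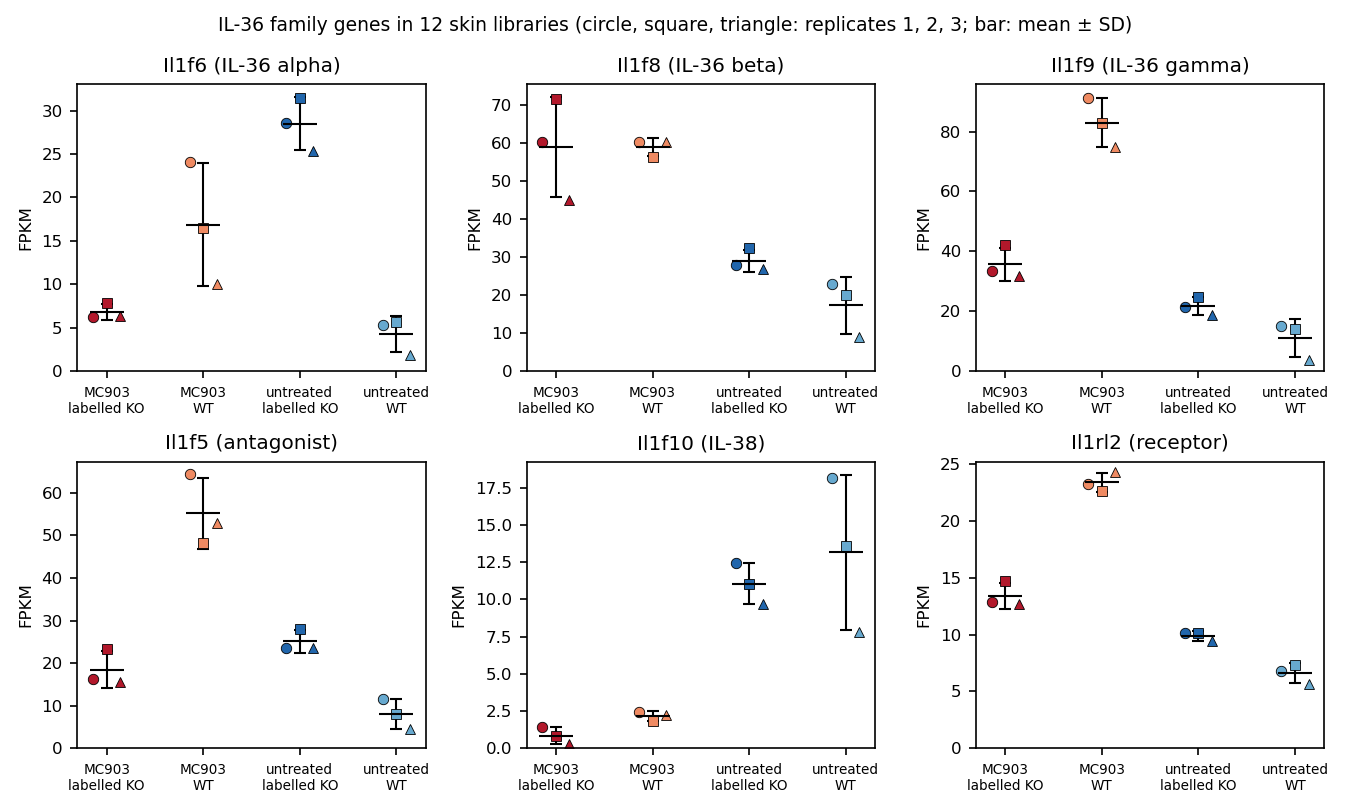
FPKM of each gene (vertical axes from 0, with their own scales) in the 12 libraries, in 4 groups; symbols are replicates, and the bars show mean ± SD (n = 3). Il1f6 is highest in untreated skin labelled knockout (25.4 to 31.5 FPKM), whereas Il1f9, Il1f5 and Il1rl2 are highest in MC903 wild type skin and Il1f10 is lowest after MC903.

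Each comparison was tested with limma on log2(FPKM + 0.5) over all 17646 genes, and a gene was called at an adjusted p below 0.05. Log2 fold changes are on that scale, which understates the change of low genes, and folds are ratios of group mean FPKM. With MC903 in wild type skin all 6 members were called, where 63% of all genes were. Of them 5 were higher, where 32.6% of all genes were, and 1 was lower, where 30.3% were. With MC903 in skin labelled knockout 4 members were called (47.9% of all genes), 2 of them higher (25%) and 2 lower (23%). In untreated skin 3 members were called between genotypes (11.7% of all genes), and all 3 were higher under the knockout label (7.15% of all genes were higher and 4.55% lower). In MC903 skin 5 members were called (52.1% of all genes), and all 5 were lower under the knockout label (26.1% of all genes were lower and 25.9% higher). The MC903 response itself differed between genotypes for 4 members (39.7% of all genes), all of them on the lower side for the knockout label (19.7% of all genes were lower and 20% higher). Shares of called genes were thus high in every comparison but that of untreated skin, and elsewhere a member's call alone sets it little apart from other genes. The median log2 fold change of the 6 members was 1.88 for MC903 in wild type skin, -0.02 for MC903 in skin labelled knockout, 1.01 for the genotypes untreated and -1.12 for the genotypes after MC903, beside medians of -0.03 to 0.02 over all genes tested. Comparisons that use the same group share its libraries: both comparisons with untreated wild type skin rest on the same 3 libraries, as do both with each other group.

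**Figure D2:**
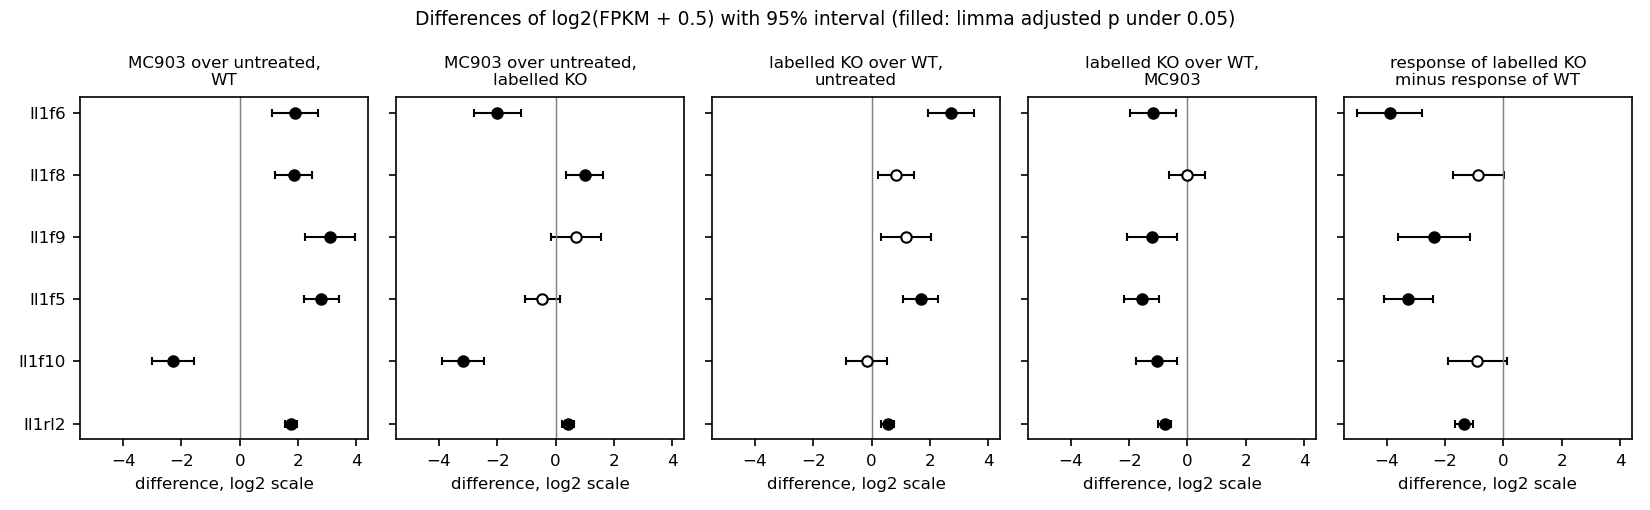
Differences of log2(FPKM + 0.5) for the 6 genes in the 5 comparisons (horizontal axis, log2 scale), with 95% intervals from the limma fit; filled points have an adjusted p under 0.05. The intervals for Il1f6 lie above 0 for MC903 in wild type skin (1.90) and below 0 for MC903 in skin labelled knockout (-1.996).

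Il1f6, which encodes IL-36 alpha, was the member whose highest level came in untreated skin labelled knockout. It stood at 6.18, 7.83 and 6.30 FPKM in MC903 skin labelled knockout and 24.1, 16.5 and 9.98 FPKM in MC903 wild type skin. Untreated, it stood at 28.6, 31.5 and 25.4 FPKM in skin labelled knockout and 5.35, 5.62 and 1.84 FPKM in wild type skin. Its levels thus ran from untreated skin labelled knockout through MC903 wild type skin and MC903 skin labelled knockout to untreated wild type skin, and no neighbouring groups overlapped. MC903 raised it 3.95-fold in wild type skin (log2 fold change 1.90 ± 0.36 SE, limma adjusted p = 0.00076). Under the knockout label the level after MC903 was 4.20-fold lower than untreated (-1.996 ± 0.36, limma adjusted p = 0.00098). The difference between the responses was -3.90 ± 0.51 (limma adjusted p = 0.00028). Untreated skin labelled knockout held 6.67-fold more than untreated wild type skin (2.72 ± 0.36, limma adjusted p = 0.0020), and 31 to 100 reads lay behind the wild type values. After MC903 the libraries labelled knockout were 2.49-fold lower than wild type (-1.18 ± 0.36, limma adjusted p = 0.018). That last call was lost without MC903 replicate 1 or 3 labelled knockout, without MC903 wild type replicate 1 and under TPM scaling, with adjusted p-values over all alternatives of 0.0022 to 0.077.

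Il1f8, which encodes IL-36 beta, was the agonist whose levels after MC903 overlapped between the labels. It read 60.3, 71.6 and 45.1 FPKM in MC903 skin labelled knockout and 60.2, 56.2 and 60.3 FPKM in MC903 wild type skin. The untreated values were 27.8, 32.3 and 26.9 FPKM under the knockout label and 23.0, 19.96 and 8.85 FPKM in wild type. Both MC903 groups overlapped each other and lay above every untreated library. The rise with MC903 was 3.41-fold in wild type skin (1.85 ± 0.29, limma adjusted p = 0.00018) and 2.03-fold in skin labelled knockout (0.99 ± 0.29, limma adjusted p = 0.014; 0.060 without MC903 replicate 2 labelled knockout). The interval of the difference between those responses, -1.74 to 0.03, reached 0 (limma adjusted p = 0.11, and 0.043 when untreated wild type replicate 1 was left out). After MC903 the genotypes differed by -0.02 on the log2 scale, with a 95% interval of -0.65 to 0.61 (limma adjusted p = 0.96). Untreated, the difference of 0.83 did not pass the test (limma adjusted p = 0.083), although the groups did not overlap. It was 1.09 without untreated wild type replicate 1 (limma adjusted p = 0.041) and 0.42 when untreated wild type replicate 3 was left out (limma adjusted p = 0.094).

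Il1f9, which encodes IL-36 gamma, reached the highest level of any member. It read 33.3, 41.9 and 31.8 FPKM in MC903 skin labelled knockout and 91.3, 82.9 and 74.8 FPKM in MC903 wild type skin. Untreated skin had 21.6, 24.7 and 18.9 FPKM under the knockout label and 15.2, 13.9 and 3.62 FPKM in wild type. The 4 groups did not overlap, in the order MC903 wild type, MC903 labelled knockout, untreated labelled knockout and untreated wild type. MC903 raised Il1f9 7.61-fold in wild type skin (3.09 ± 0.40, limma adjusted p = 4.4e-05). In skin labelled knockout the difference was 0.70 with a 95% interval of -0.17 to 1.57 (limma adjusted p = 0.17), and the responses differed by -2.39 ± 0.56 (limma adjusted p = 0.0064). After MC903 the level under the knockout label was 2.33-fold lower (-1.21 ± 0.40, limma adjusted p = 0.024). This call was lost under 6 of 23 alternatives, namely without a filter on low values, under TPM scaling, and without MC903 replicate 1 or 3 labelled knockout or MC903 wild type replicate 1 or 2. The untreated difference of 1.18 missed the threshold (limma adjusted p = 0.079) and passed it under 5 of 23 alternatives (among them voom, library weights, and fits without untreated wild type replicate 1 or 3). Without that wild type replicate 3 the untreated difference was 0.56 (limma adjusted p = 0.023), the wild type response of Il1f9 2.47 and the response difference -1.77. The response under the knockout label, whose groups did not overlap, passed the threshold without that library (limma adjusted p = 0.0011), with library weights (0.017) and in a fit of only the groups compared (0.0052).

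Il1f5, the antagonist, rose with the agonists in wild type skin. It measured 16.3, 23.4 and 15.5 FPKM in MC903 skin labelled knockout, against 64.3, 48.2 and 53.0 FPKM in MC903 wild type skin. Untreated libraries had 23.6, 28.1 and 23.5 FPKM under the knockout label and 11.5, 7.99 and 4.42 FPKM in wild type. The untreated libraries labelled knockout therefore lay above the MC903 libraries of the same label, by a margin of 23.5 against 23.4 FPKM for the closest pair. MC903 raised Il1f5 6.93-fold in wild type skin (2.80 ± 0.27, limma adjusted p = 5.3e-06). Under the knockout label its difference was -0.46 with a 95% interval of -1.05 to 0.14 (limma adjusted p = 0.19), and the responses differed by -3.26 ± 0.38 (limma adjusted p = 0.00016). Skin labelled knockout held 3.15-fold more than wild type when untreated (1.68 ± 0.27, limma adjusted p = 0.0048) and 2.997-fold less after MC903 (-1.57 ± 0.27, limma adjusted p = 0.00065).

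Il1f10, which encodes IL-38, was the member that fell in both genotypes. It was at 1.43, 0.823 and 0.301 FPKM in MC903 skin labelled knockout and at 2.44, 1.83 and 2.21 FPKM in MC903 wild type skin. Untreated, it was at 12.5, 11.01 and 9.68 FPKM under the knockout label and 18.1, 13.5 and 7.78 FPKM in wild type. Every MC903 library lay below every untreated one, and the untreated groups overlapped. The fall was 12.96-fold in skin labelled knockout (-3.18 ± 0.32, limma adjusted p = 2.2e-05), where 3 to 14 reads per library remained after MC903, and 6.08-fold in wild type skin (-2.29 ± 0.32, limma adjusted p = 8.8e-05). These falls differed by -0.89 with a 95% interval of -1.89 to 0.11 (limma adjusted p = 0.14, and 0.047 when MC903 replicate 1 labelled knockout was left out). After MC903 the level was 2.54-fold lower under the knockout label (-1.06 ± 0.32, limma adjusted p = 0.017), a call lost under TPM scaling, with voom, and without MC903 replicate 3 labelled knockout or MC903 wild type replicate 1. Untreated, the difference was -0.17 (limma adjusted p = 0.77).

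Il1rl2, which encodes the receptor chain that binds all these ligands, varied least between replicates. It read 12.8, 14.7 and 12.7 FPKM in MC903 skin labelled knockout and 23.2, 22.6 and 24.3 FPKM in MC903 wild type skin. In untreated skin it read 10.1, 10.1 and 9.39 FPKM under the knockout label and 6.81, 7.36 and 5.61 FPKM in wild type. No groups overlapped, and their order was that of Il1f9. MC903 raised the receptor 3.54-fold in wild type skin (1.76 ± 0.10, limma adjusted p = 1.1e-07) and 1.36-fold in skin labelled knockout (0.42 ± 0.10, limma adjusted p = 0.0049; 0.11 under TPM scaling). The responses differed by -1.34 ± 0.14 (limma adjusted p = 9.1e-05). Skin labelled knockout held 1.499-fold more receptor RNA untreated (0.56 ± 0.10, limma adjusted p = 0.0068; 0.055 in a fit of only the groups compared) and 1.74-fold less after MC903 (-0.78 ± 0.10, limma adjusted p = 8.0e-05).

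The make-up of the ligand RNA differed between groups, and it is given as a description without a test. Per length, the agonists summed to 101 ± 19.1 FPKM in MC903 skin labelled knockout, 159 ± 15.5 in MC903 wild type skin, 79.2 ± 8.79 in untreated skin labelled knockout and 32.4 ± 15.8 in untreated wild type skin (SD, n = 3 each). The ratio of that sum to the antagonist Il1f5 was 5.56 ± 0.49 in MC903 skin labelled knockout, against 2.90 ± 0.29 in MC903 wild type skin, and the ranges (5.19 to 6.11 and 2.73 to 3.23) did not overlap. In untreated skin the ratio was 3.15 ± 0.14 under the knockout label and 3.99 ± 0.87 in wild type, and these overlapped. Skin labelled knockout after MC903 thus held less agonist RNA than wild type but proportionally still less antagonist RNA. Il1f6 made up 6.74% of agonist RNA in MC903 skin labelled knockout, 10.4% in MC903 wild type skin, 35.9% in untreated skin labelled knockout and 13.1% in untreated wild type skin. Il1f10 made up 0.697% of the RNA of all 5 ligands in MC903 skin labelled knockout, 1.001% in MC903 wild type skin, 9.61% in untreated skin labelled knockout and 25.4% in untreated wild type skin.

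**Figure D3:**
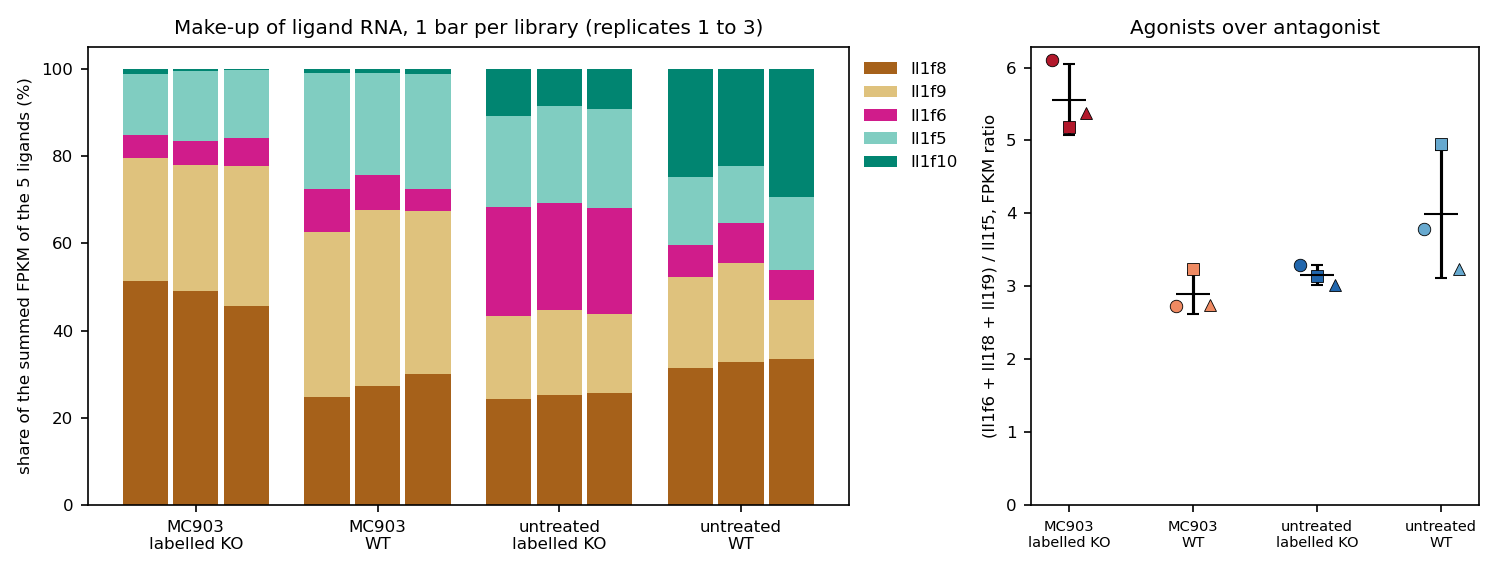
Left, share of each ligand gene in the summed FPKM of the 5 ligands (percent), 1 bar per library; right, FPKM ratio of the 3 agonists to Il1f5 per library with mean ± SD (n = 3). The ratio lies at 5.19 to 6.11 in MC903 skin labelled knockout and at 2.73 to 4.94 in the other 9 libraries, and the Il1f6 share stands out in untreated skin labelled knockout.

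Keratinocyte markers moved with several of these results, and their part in them was not tested. The summed FPKM of 7 basal keratinocyte markers was 3489 to 4877 in MC903 skin labelled knockout, 12362 to 17305 in MC903 wild type skin, 2012 to 2302 in untreated skin labelled knockout and 1726 to 2019 in untreated wild type skin. For 6 suprabasal markers the sum was 2499 to 3765 in MC903 skin labelled knockout, 5166 to 9774 in MC903 wild type skin, 4413 to 5088 in untreated skin labelled knockout and 2113 to 3281 in untreated wild type skin. The suprabasal sums were thus higher under the knockout label when untreated and lower after MC903, as were Il1f6, Il1f5 and Il1rl2, whereas the untreated basal sums overlapped. After MC903 all 7 basal and 4 of 6 suprabasal markers were lower under the knockout label (medians -1.38 and -0.94), and so were all 4 markers of stressed keratinocytes (-1.61). Of all genes, 26.1% were lower in that comparison. In untreated skin 2 of 6 suprabasal and 3 of 4 stress markers were higher under that label (limma, medians 1.17 and 1.13), where 7.15% of all genes were. The 7 basal markers had a median of 0.02 there and none was called. Of 7 immediate early and heat shock genes, which tissue handling can induce, 4 were also higher there, with sums of 142 to 203 FPKM under the knockout label and 82.9 to 117 in wild type. Other cell types differed in untreated skin too. Fibroblast sums were 3582 to 4138 FPKM under the knockout label and 967 to 1699 FPKM in wild type, with 3 of 5 genes higher. Adipocyte sums were 142 to 157 and 217 to 343 FPKM, with 3 of 3 genes lower, where 4.55% of all genes were. Of 6 macrophage markers, 3 were higher. The defining markers of all 3 keratinocyte lists were above 0 in every group.

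By median response to MC903, the receptor complex and its mediators moved less than the 6 members in wild type skin (0.48 and 1.88). In skin labelled knockout the medians were 0.36 and -0.02, and there the members moved in both directions. Of 13 genes of the receptor complex and its signal mediators, 9 rose (32.6% of all genes did) and 2 fell (30.3% did) with MC903 in wild type skin (median 0.48). Under TPM scaling 4 rose and 3 fell. Myd88, the adaptor, averaged 29.2 ± 1.34 FPKM in MC903 and 11.9 ± 0.673 FPKM in untreated wild type skin (1.26 ± 0.09, limma adjusted p = 5.4e-07). Nfkbiz, which encodes the NF-kappaB cofactor IkappaB-zeta, averaged 17.9 ± 0.616 FPKM in MC903 and 4.22 ± 1.59 FPKM in untreated wild type skin (2.02 ± 0.24, limma adjusted p = 2.3e-05). The kinases Irak2 and Irak4 rose as well (0.94 and 0.83), whereas Irak1 and Tab2 fell (-0.36 and -0.44). In skin labelled knockout 8 of the 13 rose with MC903 (25% of all genes did) and the other 5 were not called (limma), again with Myd88 at 1.23 and with the accessory chain Il1rap at 0.67. The count called was 5 under TPM scaling, of which 1 fell, and 5 without MC903 replicate 1 or 2 or untreated replicate 3 labelled knockout. The MC903 response differed between genotypes for Nfkbiz (-1.23 ± 0.34, limma adjusted p = 0.014) and Irak2 (-0.58 ± 0.16, limma adjusted p = 0.013), both smaller under the knockout label and both lost under TPM scaling (0.051 and 0.12), and for Tab2 (0.61), Irak1 (0.35) and Il1rap (0.50), all on the higher side. Untreated, 3 of the 13 were higher under the knockout label (7.15% of all genes were), namely Il1rap, Irak4 and Mapk14 (0.50, 0.48 and 0.28). These untreated calls were unstable: the count was 0 without untreated replicate 1, 2 or 3 labelled knockout and in a fit of only the groups compared, 1 without untreated wild type replicate 1 and 7 with library weights.

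After MC903 the accessory chain Il1rap ran opposite to its partner Il1rl2 between genotypes. It averaged 7.58 ± 1.03 FPKM in MC903 skin labelled knockout and 3.51 ± 0.226 FPKM in MC903 wild type skin (1.003 ± 0.13, limma adjusted p = 8.0e-05). Among 5 inhibitors of IL-1 family signalling, 3 were higher and 1 lower in that comparison (25.9% of all genes were higher and 26.1% lower). Tnfaip3, which encodes the ubiquitin-editing enzyme A20, differed by 1.04 and Irak3, which encodes a kinase-dead member of the Irak family, by 0.84, whereas Sigirr, an inhibitory receptor, differed by -0.60 (limma adjusted p = 0.0089, and 0.080 under TPM scaling). Of these 5 genes, Nfkbia and Tollip rose with MC903 in wild type skin (0.78 and 0.56), but neither passed the test under TPM scaling (limma adjusted p = 0.061 and 0.54). In skin labelled knockout Irak3, Nfkbia and Tnfaip3 rose (0.71, 0.64 and 0.41) and Sigirr fell (-0.50). The Tnfaip3 call was lost with TPM or total-read scaling and without MC903 replicate 2 or 3 or untreated replicate 3 labelled knockout, and the Sigirr call without a filter and without MC903 replicate 2 or untreated replicate 1 or 3 labelled knockout.

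Of 3 tested proteases that process IL-36 cytokines, 2 were higher in MC903 skin labelled knockout than in MC903 wild type skin, where 25.9% of all genes were higher. Ctss, which encodes cathepsin S, averaged 278 ± 65.2 FPKM in MC903 skin labelled knockout and 119 ± 2.45 FPKM in MC903 wild type skin (1.19 ± 0.16, limma adjusted p = 0.00012). Ctsg, which encodes cathepsin G of neutrophils and mast cells, averaged 2.55 ± 0.21 FPKM in MC903 skin labelled knockout and 0.331 ± 0.262 FPKM in MC903 wild type skin (1.92 ± 0.29, limma adjusted p = 0.00025). Prtn3, proteinase 3, did not pass the test (-0.57), and Elane, neutrophil elastase, was below the filter. Macrophage, neutrophil, and dendritic and Langerhans cell markers were also higher in that comparison, and their part was not tested. Summed macrophage markers were 619 to 928 FPKM in MC903 skin labelled knockout and 353 to 452 in MC903 wild type skin, with 5 of 6 genes called higher. Summed neutrophil markers were 76.8 to 116 FPKM in MC903 skin labelled knockout and 18.2 to 36.4 FPKM in MC903 wild type skin, with all 5 tested genes higher. Summed dendritic and Langerhans cell markers were 786 to 1024 FPKM and 361 to 431 FPKM in the same groups, with all 7 genes higher. With MC903 in wild type skin, Ctsg fell (-1.64), and it was the protease called there. Neutrophil markers went the other way: all 5 tested genes rose, where 32.6% of all genes did. Their sums were 18.2 to 36.4 FPKM in MC903 and 2.15 to 4.03 FPKM in untreated wild type skin.

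Most of the genes known to be induced by IL-36 in keratinocytes rose after MC903 under both labels. Of the 16 tested of 18 listed, 14 rose in wild type skin and the other 2 were not called (limma, median 2.77, where the all-gene median was 0.02 and 32.6% of all genes rose). In skin labelled knockout 13 rose and 1, Ccl20, fell (median 3.45, where 25% of all genes rose). Many of them also answer to IL-17, TNF and other cytokines, and S100a8, S100a9, Il1b and Cxcl2 are abundant in neutrophils as well. Defb4, a beta-defensin, averaged 85.5 ± 14.2 FPKM in MC903 and 0.304 ± 0.343 FPKM in untreated skin labelled knockout (6.82 ± 0.30, limma adjusted p = 7.1e-08), and 56.9 ± 3.14 FPKM in MC903 and 0.146 ± 0.252 FPKM in untreated wild type skin (6.54 ± 0.30, limma adjusted p = 3.0e-08). Tnf and Il17c did not pass the test in either genotype.

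After MC903, 7 of the 16 were higher under the knockout label and the other 9 were not called (limma, median 0.66; 25.9% of all genes were higher and 26.1% lower), whereas 5 of the 6 family members were lower. The count called was 5 to 9 with a library left out and 11 in a fit of only the groups compared. Cxcl5, a neutrophil attractant, was at 35.1, 49.5 and 46.7 FPKM in MC903 skin labelled knockout and 5.46, 10.6 and 13.4 FPKM in MC903 wild type skin. The groups did not overlap (2.17 ± 0.26, limma adjusted p = 6.0e-05), and the response itself was larger under the knockout label by 2.10 (limma adjusted p = 0.0014, and 0.19 with voom on the recovered reads). Il6 was at 5.99, 5.95 and 6.12 FPKM in MC903 skin labelled knockout and 1.97, 3.22 and 1.42 FPKM in MC903 wild type skin (1.32 ± 0.20, limma adjusted p = 0.00026). Defb3, another beta-defensin, was at 151, 118 and 98.4 FPKM in MC903 skin labelled knockout and 29.4, 27.3 and 18.8 FPKM in MC903 wild type skin (2.26 ± 0.22, limma adjusted p = 1.6e-05). Untreated, Defb3 was at 1.49, 2.10 and 0.976 FPKM under the knockout label and at 0 in all 3 wild type libraries.

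**Figure D4:**
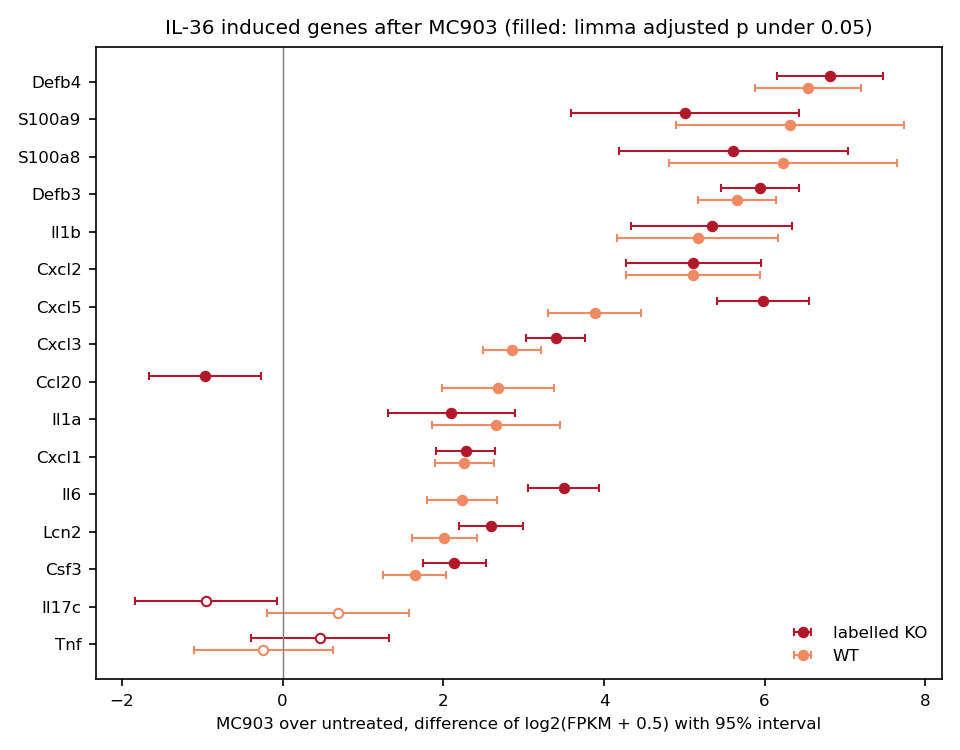
MC903 response (horizontal axis, difference of log2(FPKM + 0.5) with 95% interval) of the 16 tested IL-36 induced genes in skin labelled knockout (red) and wild type (orange); filled points have a limma adjusted p under 0.05. Ccl20 stands at 2.68 in wild type skin and at -0.97 in skin labelled knockout, while most other genes lie above 0 under both labels.

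Ccl20, which attracts cells bearing the receptor Ccr6, had its groups in the same order as Il1f6. It was at 2.44, 3.47 and 2.59 FPKM in MC903 skin labelled knockout, 5.05, 3.03 and 7.33 FPKM in MC903 wild type skin, 6.37, 7.89 and 4.16 FPKM in untreated skin labelled knockout and 0.141, 0.698 and 0.258 FPKM in untreated wild type skin. Its neighbouring groups overlapped except for untreated wild type skin, which lay below all others. Ccl20 rose with MC903 in wild type skin (2.68, limma adjusted p = 2.5e-05) and fell in skin labelled knockout (-0.97, limma adjusted p = 0.027), a difference of -3.65 ± 0.45 (limma adjusted p = 0.00020). Untreated, it was higher under the knockout label (2.95 ± 0.32, limma adjusted p = 0.00091). Il17c, an epithelial cytokine, was at 1.28, 1.53 and 0.373 FPKM in untreated skin labelled knockout and at 0 in all untreated wild type libraries (limma adjusted p = 0.032), on at most 21 reads per library. Defb3, S100a9 and Cxcl1 completed the 5 of 16 genes that were higher in untreated skin labelled knockout (median 0.64), where 7.15% of all genes were higher. That count was 2 without untreated replicate 1 or 2 labelled knockout, without a filter and in a fit of only the groups compared, 3 without untreated wild type replicate 1 or 2, and 10 with library weights, of which 1 was lower. The Il17c call was lost under 4 of 20 alternatives and the S100a9 call under 6 of 23. Marker sums of dendritic and Langerhans cells were 913 to 915 FPKM there, against 540 to 686 FPKM in untreated wild type skin, with 4 of 7 genes called higher; their part was not tested.

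Some of the genes beside the members followed them and others did not. Of 5 protein-coding genes within 250000 bases of the ligand genes on chromosome 2, 3 were tested. Il1rn, the nearest, was at 16.0025, 20.7 and 13.7 FPKM in MC903 skin labelled knockout, 15.3, 14.8 and 15.2 FPKM in MC903 wild type skin, 8.12, 7.54 and 6.46 FPKM in untreated skin labelled knockout and 4.88, 4.82 and 2.43 FPKM in untreated wild type skin. It rose with MC903 in wild type skin (1.84 ± 0.22, limma adjusted p = 2.4e-05) and in skin labelled knockout (1.12 ± 0.22, limma adjusted p = 0.0015), and like Il1f8 it had overlapping levels after MC903. Psd4, farther along, rose in both (1.27 in wild type and 0.42 under the knockout label). Hnmt, on the other side, fell in wild type skin (-1.51). Untreated, Il1rn and Psd4 were higher under the knockout label (0.84 and 0.50, limma adjusted p = 0.031 and 0.027), where 7.15% of all genes were. Each of these calls was lost under 5 of 23 alternatives. After MC903 Psd4 was lower under that label (-0.35, limma adjusted p = 0.034), where 26.1% of all genes were, and Hnmt was higher (0.72, limma adjusted p = 0.0051). Around Il1rl2 on chromosome 1, 4 of 5 tested neighbours were higher in MC903 skin labelled knockout (limma, where 25.9% of all genes were), whereas Il1rl2 was lower, and Il1r2 was not called. Il1r1, the IL-1 receptor whose gene ends just before Il1rl2, averaged 29.6 ± 1.53 FPKM in MC903 skin labelled knockout and 13.7 ± 1.68 FPKM in MC903 wild type skin (1.10 ± 0.09, limma adjusted p = 7.9e-06). Il18rap, an IL-18 receptor chain of lymphoid and myeloid cells, averaged 8.38 ± 0.93 FPKM in MC903 skin labelled knockout and 2.04 ± 0.62 FPKM in MC903 wild type skin (1.83 ± 0.21, limma adjusted p = 4.4e-05). Summed fibroblast markers were 1502 to 1929 FPKM in MC903 skin labelled knockout and 458 to 568 FPKM in MC903 wild type skin, with 5 of 5 genes higher. Summed T cell markers were 16.1 to 22.1 FPKM in MC903 skin labelled knockout and 7.81 to 10.1 FPKM in MC903 wild type skin, with 3 of 6 tested genes higher. The part of these cells was not tested.

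**Figure D5:**
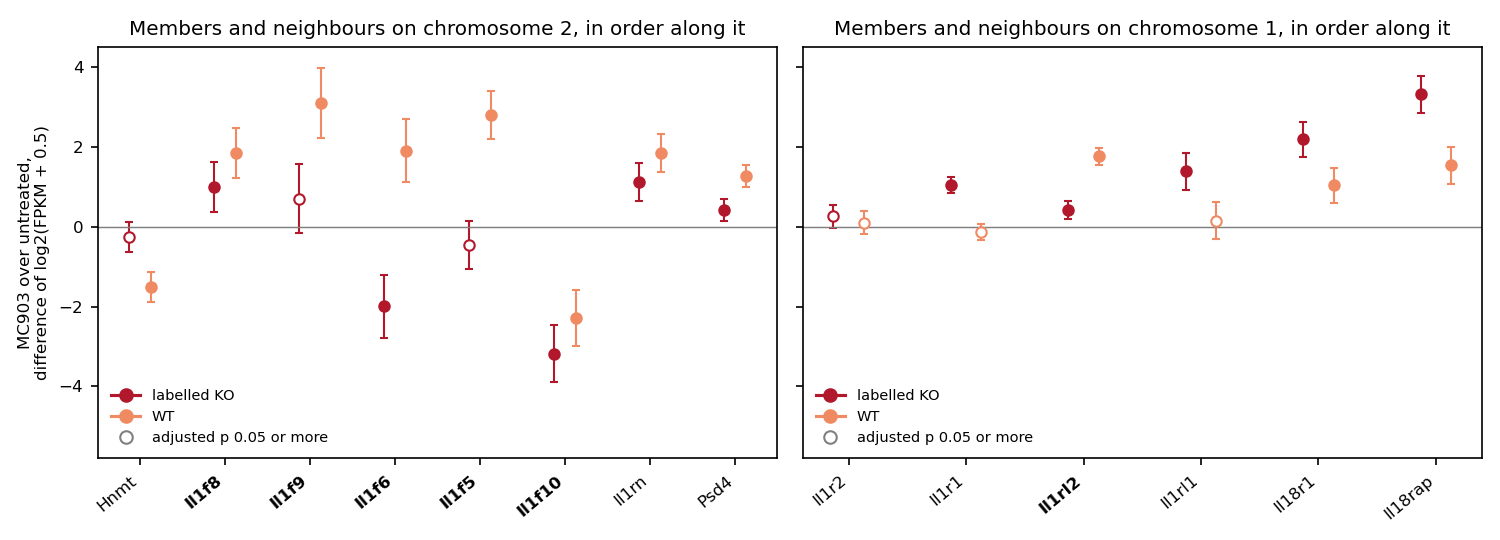
MC903 response (vertical axis, difference of log2(FPKM + 0.5) with 95% interval) of the members (bold) and their tested neighbours, in order along chromosome 2 (left) and chromosome 1 (right), in skin labelled knockout (red) and wild type (orange); open points did not pass the test. Il1f6 and Il1f10 lie on opposite sides of 0 in wild type skin, and Il1rl2 responds more in wild type whereas Il1r1 and Il18rap respond more under the knockout label.

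The members also differed in which other genes were most like them over the 12 libraries, by Pearson correlation of log2(FPKM + 0.5), given as a description over libraries that share the treatment and label groups. Il1f5 was closest to Asprv1 (r = 0.994), which encodes a protease of the upper epidermis that cleaves profilaggrin. Asprv1 averaged 305 ± 51.7 FPKM in MC903 skin labelled knockout, 871 ± 131 in MC903 wild type skin, 424 ± 38.9 in untreated skin labelled knockout and 132 ± 36.5 in untreated wild type skin. Il1f8 was closest to Il1rn (0.986), then to the amino acid transporter Slc6a14 and the epithelial transcription factor Ehf (both 0.985). Il1f9 was closest to Prdm1 (0.988), H60c (0.987) and Zfp750 (0.985), of which Prdm1 and Zfp750 encode transcription factors of epidermal differentiation. Il1f10 was closest to Npbwr1 (0.984), the keratin gene Krt24 (0.983) and Dapl1 (0.980). Il1rl2 was closest to the phosphate transporter gene Slc34a2 (0.993), and Nkpd1 (0.991) was also among its closest. Il1f6 had the weakest best matches, Hsbp1l1 (0.931), Creb3l3 (0.925) and Card14 (0.919), a scaffold gene of keratinocyte NF-kappaB signalling. Among the members, Il1f9 and Il1rl2 were the most alike pair (0.959), and Il1f8 and Il1f9 followed (0.930). Il1f10 was the least alike to the rest, with Il1f8 (-0.725), Il1rl2 (-0.666), Il1f9 (-0.590) and Il1f5 (-0.358) all below 0. Il1f6 had its lowest correlations with Il1f10 (0.126) and Il1f8 (0.395).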

How the data were processed

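The authors deposited gene-level FPKM of 12 skin libraries, poly-A selected with random hexamer priming per the labels' protocols. Alignment was to mm10 and counting used featureCounts, per the submitters' processing notes; for the aligner, annotation release and FPKM tool the sources used here give nothing. FPKM times gene length gave whole reads after one factor per library for 100% of values within 0.01. The depth that this factor implies was not the number of assigned reads. It was 0.917 to 0.964 times that number in MC903 wild type skin and 0.984 to 1.02 times in MC903 skin labelled knockout. In untreated skin it was 1.04 to 1.07 times under the knockout label and 1.06 to 1.11 times in wild type. Compared with scaling by total reads, the deposited FPKM is thus raised in MC903 wild type skin and lowered in untreated skin. The series' 3 samples of dorsal root ganglion are not analysed here.

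Genes with FPKM of at least 0.5 in 3 libraries (17646 of 54532) were fitted with limma 3.58.1 in R 4.3.3 on log2(FPKM + 0.5), 12 libraries in 4 groups, 8 residual degrees of freedom, eBayes with trend, two-sided, Benjamini-Hochberg within each of 5 contrasts. Exact permutation of 3 against 3 libraries cannot go below 0.10, so it was not used. Members and lists were chosen with earlier results of these data known. Up to 4 members of each list were named by p per contrast. Outside that rule, some genes were named after their values were seen. These were Il1rap, Il1rl1 and Il18r1 in the response difference, and S100a9 and Cxcl1 in untreated skin. Values of Ccl20, Il17c, Tnf, Il1rn, Prtn3, Psd4 and Hnmt outside the rule were also given after they were seen. For likeness, the 3 highest correlations per member were taken; a gene that this rule names is left out here. Deviations of same-numbered libraries correlated at -0.13 to 0.17 (3 of 18 pairs over 0.1), so numbers were not taken to pair libraries. Motifs were matched as letters in RefSeq windows. The limma steps were tried on simulated counts for a single contrast, MC903 against untreated wild type skin. The spread was set in advance and not taken from the data, and the other contrasts were not simulated. Alternatives changed pseudocount, filter, scaling, variance model, block and libraries. Python 3.11.15 with numpy 2.4.6, pandas 2.3.3 and matplotlib 3.10.9 was used.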

Additional observations from a re-analysis of the deposited data

Results flagged for a closer look

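For the following genes the MC903 response of skin labelled knockout differed from that of wild type skin by the limma test of the difference itself (adjusted p under 0.05). Groups of 3 libraries were too small for a formal test of outlying libraries, but fits with a library left out were run. Among the members the difference, labelled knockout minus wild type on the log2 scale, was -3.26 for Il1f5, -3.90 for Il1f6, -2.39 for Il1f9 and -1.34 for Il1rl2. Among signal mediators and inhibitors it was -1.23 for Nfkbiz, -0.58 for Irak2, 0.61 for Tab2, 0.35 for Irak1 and 0.95 for Irak3. Il1rap, given above, differed as well. Of the proteases, Ctsg differed by 1.77 and Ctss by 0.96. Of the IL-36 induced genes, Ccl20 differed by -3.65, Cxcl5 by 2.10, Il6 by 1.27 and Il17c by -1.64, the last on few reads and with untreated wild type libraries at 0, so that its size depends on the pseudocount; its call was lost under 10 of 19 alternatives, with adjusted p-values up to 0.092. Il17c also passed the filter on low values only through libraries labelled knockout, so its call is no evidence of a difference between the labels. With voom on the recovered reads the differences of Cxcl5 and Il6 lost their calls (adjusted p = 0.19 and 0.32), and under TPM scaling those of Nfkbiz and Irak2 did. Among the neighbouring genes the differences were 1.18 for Il1r1, 1.78 for Il18rap, 1.23 for Il1rl1, 1.15 for Il18r1, 1.25 for Hnmt and -0.85 for Psd4. Causes were not tested.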

How the results depend on the processing

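Of 114 recomputed counts of called members, 109 stayed within 1.5 times the count reported. For the genotypes after MC903 the count was 2 under TPM scaling instead of 5, and 2 to 5 when a library was left out: 3 without MC903 replicate 1 labelled knockout, and 2 without its replicate 3 or without MC903 wild type replicate 1. For the genotypes untreated it was 3 to 5 with a library left out, and 5 without untreated wild type replicate 1. Leaving out libraries gave 6 for MC903 in wild type skin, 3 to 5 for MC903 under the knockout label and 4 to 5 for the response difference. Of 684 recomputed fold changes of members 650 kept direction and call, and 5 reversed, all of them without a call: the log2 fold change of Il1f10, labelled knockout against wild type, untreated skin, was 0.092 without wild type replicate 1 (-0.49 to 0.092 with a library left out). The log2 fold change of Il1f8, labelled knockout against wild type, MC903 skin, was 0.27 under TPM scaling, 0.072 with scaling by total reads, 0.056 with library weights and 0.16 without replicate 3 labelled knockout (-0.17 to 0.16 with a library left out). The causes were not tested. With the replicate block, Il1f9 untreated (adjusted p = 0.047) and Il1f10 in the response difference (0.045) gained a call and no member lost one.

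Under TPM scaling the median log2 fold change of all genes was -0.36 for MC903 in wild type skin and -0.16 under the knockout label. It was 0.21 between genotypes after MC903 and 0.23 for the response difference. The medians as reported were -0.03 to 0.02. The share of called genes that were higher was then 26.3%, 33.3%, 73.7% and 71.9%, against 51.8%, 52.1%, 49.8% and 50.3% as reported. With scaling by total reads that share was 39.8% for MC903 in wild type skin and 62.0% for the response difference, where the medians were -0.15 and 0.12. For the genotypes untreated it was 49.6% (61.1% as reported). A fit of only the groups compared has no form for the response difference. Depth limited Il1f10 after MC903, Il17c and untreated Defb3.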
